A study of Mus musculus with 10 samples.

Results

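The genes described here encode the paired activating and inhibitory receptors of mouse myeloid cells, with their adaptors and the ligand Cd47. They were the rows of the count table whose symbol starts with Cd300, Siglec, Lilr, Pira, Pirb, Pilr, Trem or Sirp, together with Cd33, Tyrobp, Hcst, Lair1, Cd200r1 and Cd47. The rule took 42 of the 24015 genes in the table, and 35 of them had at least 10 reads summed over the 10 libraries. Of the other 7, Cd300lh had 5 reads and Siglech had 1, and 5 genes (Siglec15, Pira1, Pira4, Pira7 and Pira11) had none. RNA was sequenced from MAF9 cells, which are bone marrow cells of C57BL/6 mice transduced with the MLL-AF9 fusion oncogene and kept in medium that held interleukin-3 at 10 ng/ml and serum at 15%. All 5 conditions carried the fusion gene and the same cytokine. The cells were treated for 4 days with DMSO as the mock treatment, with MM-401, which blocks the MLL1-WDR5 interaction, with EPZ5676, an inhibitor of the H3K79 methyltransferase DOT1L, with MI-2-2 (MI-2 in the treatment label), which blocks the binding of MENIN to MLL, or with iBET, the fourth inhibitor. Each agent was used at a growth-inhibitory dose whose value is not given in the sources used here. Each condition had 2 libraries, described by the submitters as biological duplicates. How far the transduced cultures were independent is not stated, so the p-values measure the spread between these libraries. That spread was estimated over all 10 libraries in 1 fit. Comparisons with DMSO therefore also rest on the inhibitor pairs, which were closer together than the DMSO pair, as given below.

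Paired receptors are families of closely related cell-surface proteins that often recognize similar ligands but signal in opposite directions. The inhibitory members carry tyrosine motifs (ITIMs) in a long cytoplasmic tail, and these recruit the phosphatases SHP-1 and SHP-2. The activating members have a short tail and a charged residue in the membrane, through which they bind an adaptor with an activating motif such as DAP12 (Tyrobp) or the Fc receptor gamma chain (Fcer1g), and the adaptor then recruits the kinase SYK. On monocytes, macrophages and granulocytes these receptors set thresholds for phagocytosis, cytokine release and degranulation, and many of them appear during myeloid maturation.

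Library totals lay between 20394762 and 29473127 reads, and between 32698 and 170043 of them fell on these genes. The DMSO libraries stood apart from each other more than any other pair. Levels are in CPM, the reads on a gene scaled to a fixed library total. The correlation of log2 CPM between them was 0.942, against 0.983 to 0.992 within the inhibitors, and 15.8% of genes with at least 1 CPM differed over 2-fold between them, against 1.41% to 4.29%. Of 25 receptor genes at 1 CPM or more in DMSO, 7 differed over 2-fold, and all 7 (Lilrb4, Cd300lb, Cd300ld, Cd300lf, Trem3, Pirb and Hcst) were lower in replicate 2. DMSO replicate 2 was also the library with Y-linked transcripts, with Ddx3y at 64.5 CPM and Xist at 4.65 CPM, whereas Ddx3y was at most 0.0485 CPM and Xist between 1026 and 2818 CPM in the other 9 libraries. The counts against DMSO are given below with and without it, and its part in the results was otherwise not tested.

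The CPM values given here were scaled with the trimmed mean of M-values (TMM), and 1 read was worth 0.0365 to 0.0485 CPM. Per kilobase of annotated exon, the adaptor Tyrobp was the most abundant of the 34 genes with a known length in all 5 conditions, with group means of 398.6 CPM per kilobase in DMSO and 1331 with EPZ5676. In DMSO it was followed by Cd47 at 70.2, Trem3 at 66.1, Sirpa at 48.1, Treml2 at 34.6 and Cd33 at 28.1 CPM per kilobase. At the other end, Sirpb1a and Sirpb1b stood at 0.0399 and 0.025 CPM per kilobase and Lilra5 had no read in DMSO. With EPZ5676 the order after Tyrobp was Sirpa at 187.4, Trem3 at 140.2, Cd47 at 88.4 and Lilrb4 at 85.1 CPM per kilobase. The heat map of levels shows all 35 genes in all libraries.

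**Figure D1:**
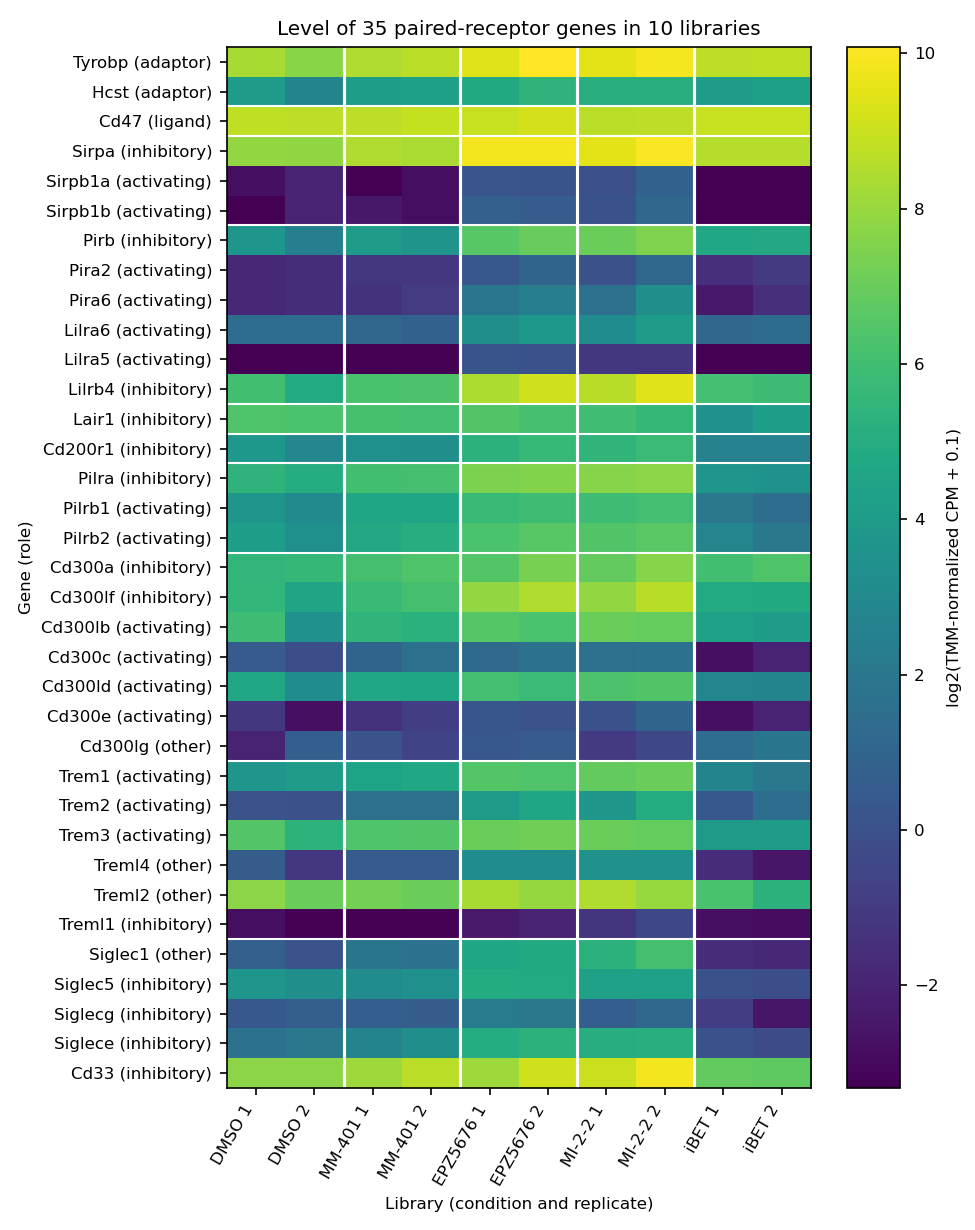
Heat map of log2(TMM-normalized CPM + 0.1) for the 35 receptor, adaptor and ligand genes with at least 10 reads (rows, grouped by family with the role in brackets) in the 10 libraries (columns, 2 per condition). The 4 columns of EPZ5676 and MI-2-2 are brighter than the DMSO columns for most genes, while the 2 iBET columns are darker for Pilra, Siglec5, Lair1 and Trem3.

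The comparison of each inhibitor with DMSO asks which of these genes respond to each of the 4 inhibitors in the leukemia cells. With EPZ5676, 27 of the 34 genes tested rose and none fell, where 38.1% of all 12971 genes tested passed, 18.7% upwards and 19.4% downwards (edgeR's quasi-likelihood test, Benjamini-Hochberg adjusted p below 0.05). With MI-2-2, 29 rose and none fell, where 41.4% of all genes passed, 20.2% upwards and 21.2% downwards. With iBET, 2 rose (Sirpa and Pirb) and 12 fell, where 13.9% of all genes passed, 6.38% upwards and 7.54% downwards. With MM-401 none of all the genes tested passed in edgeR (percent called 0%), and the counts at an unadjusted p and in DESeq2 are given further on. The median log2 fold change of the 34 genes was 2.22 for EPZ5676 and 2.38 for MI-2-2, but -0.98 for iBET, beside -0.06, -0.05 and -0.04 over all genes tested. With genes that had no read in a group set to their bound, the medians were 2.22, 2.33 and -0.89. These comparisons share the DMSO libraries and are not independent of each other. The counts and medians for EPZ5676 and MI-2-2 include genes that entered the test only through libraries of these inhibitors, named in the next paragraph.

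Not every gene entered the test on its level in DMSO. The filter asked for about 0.428 CPM in 2 libraries, and Cd300e, Sirpb1a, Sirpb1b, Pira6, Pira2 and Lilra5 passed it only through libraries of EPZ5676 or MI-2-2. Among the 26 receptor genes that were past this minimum in both DMSO libraries, 20 rose with EPZ5676 and 22 with MI-2-2, where 17% and 18.8% of the 11601 genes past it rose. Both EPZ5676 libraries were above both DMSO libraries for 32 of the 34 genes, where this held for 31.6% of all genes. For MI-2-2 this was so for 30 genes, against 33.1% of all genes, and 2 genes were below (34.9%), while with EPZ5676 none was (33%). The counts above DMSO include the genes named above that passed the filter only through EPZ5676 or MI-2-2. For those, a level above DMSO could not be told apart from their selection. Separation among the 26 genes alone was not counted. Both iBET libraries were below both DMSO libraries for 18 genes (26.9% of all genes) and above for 9 (27.7%).

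The calls followed the DMSO libraries to different degrees. Without DMSO replicate 2, 26 genes rose with EPZ5676 and 29 with MI-2-2, while 3 rose and 15 fell with iBET, where 35.5%, 37.6% and 21.6% of all genes passed in either direction. Without DMSO replicate 1, 29 and 31 rose, 1 fell with MI-2-2 (Cd300lg), and 5 rose and 11 fell with iBET, where 51%, 53.9% and 27.9% of all genes passed. Cd300lb with iBET was called in opposite directions in these 2 fits, higher without DMSO replicate 1 and lower without DMSO replicate 2. Fits of only the 4 libraries compared called 17 of these genes for EPZ5676, 17 for MI-2-2 and none for iBET, where 9.34%, 9.12% and 0% of all genes passed. Every iBET call was thus lost there. For both EPZ5676 and MI-2-2, Cd300c, Cd300ld, Cd300e, Trem3, Treml4, Sirpb1a, Sirpb1b, Pira2 and Hcst lost their calls. So did Cd300a for EPZ5676, and Cd300lb and Siglec5 for MI-2-2. Most of these losses are not repeated for single genes below. The plot of fold changes against DMSO gives every gene with its error.

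**Figure D2:**
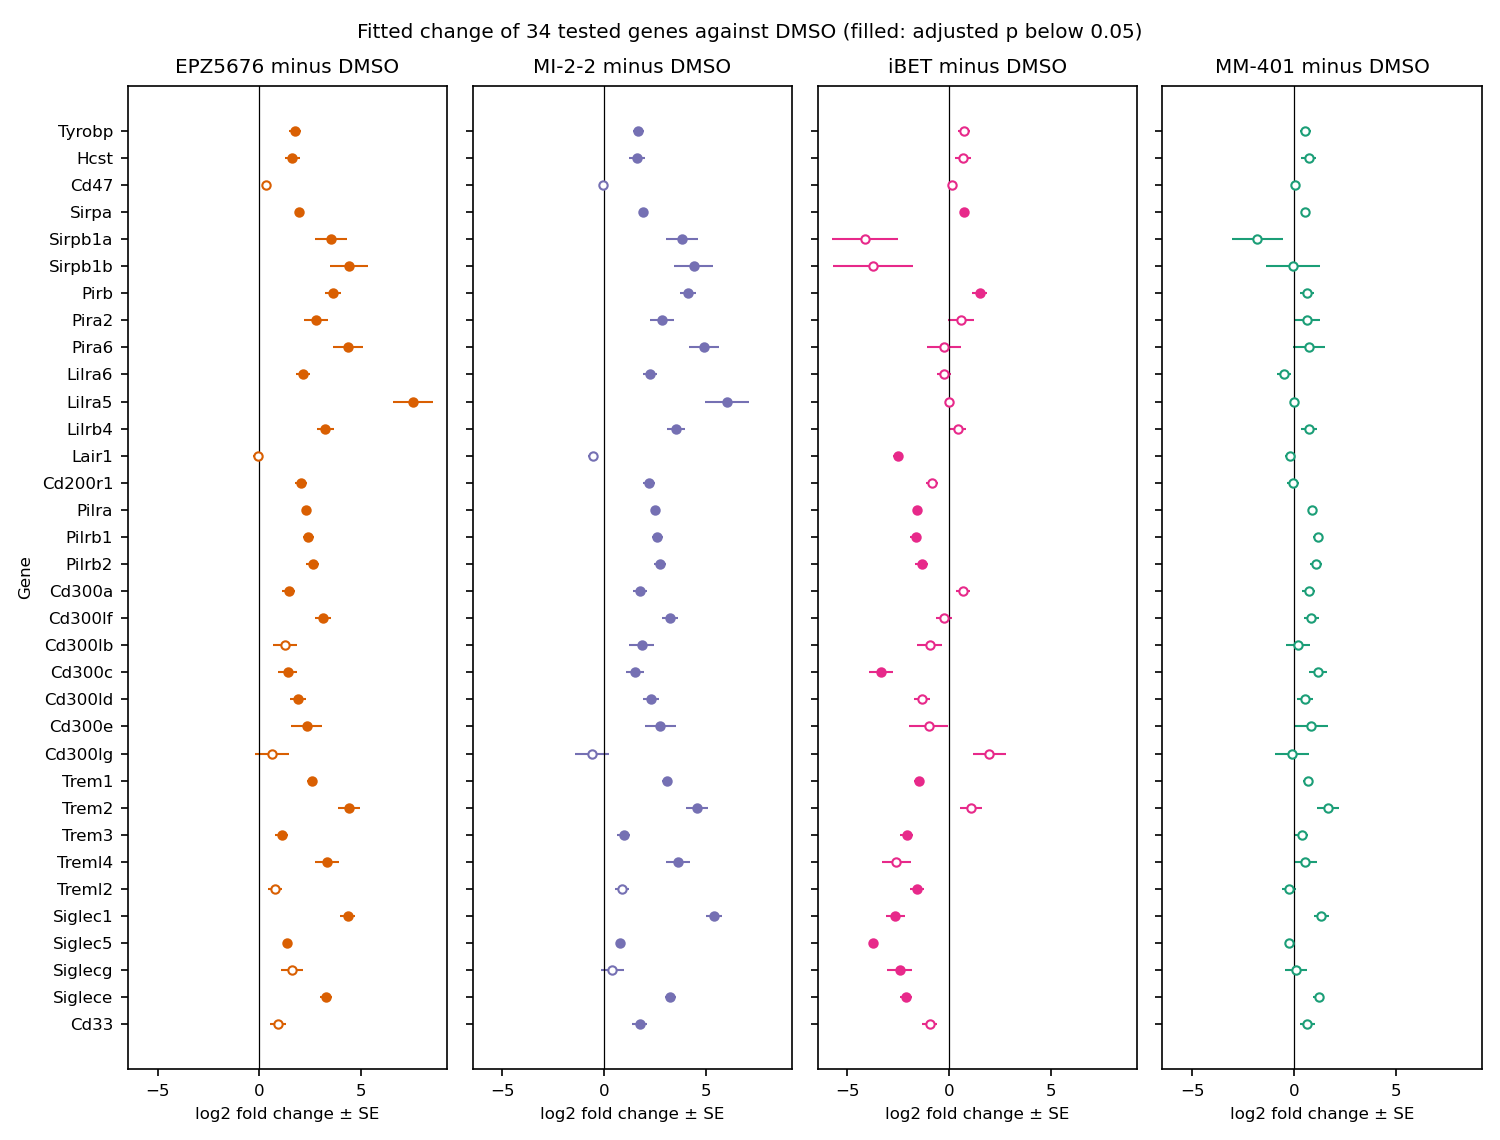
Fitted log2 fold change against DMSO (horizontal axis, bars are 1 SE) for the 34 genes tested (vertical axis) with EPZ5676, MI-2-2, iBET and MM-401 in 4 panels. Filled points passed an adjusted p of 0.05: 27 to the right of 0 with EPZ5676, 29 with MI-2-2, 2 to the right and 12 to the left with iBET, and none with MM-401. For Lilra5, Sirpb1a and Sirpb1b, which had 4 or fewer reads in a group, the fitted value depends on the model's prior count.

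Tyrobp encodes DAP12, the adaptor of Trem1, Trem2, Trem3, Sirpb1 and the Pilrb receptors. Its level was 325.3 and 206.4 CPM in the DMSO libraries, 363.9 and 416.6 with MM-401, 692 and 1083 with EPZ5676, 749.4 and 938 with MI-2-2, and 426.2 and 452.4 with iBET. Every inhibitor library lay above both DMSO libraries. Tyrobp rose with EPZ5676 (log2 fold change 1.74, SE 0.28, adjusted p = 0.00287) and with MI-2-2 (1.67, SE 0.28, adjusted p = 0.00314), and its value of 0.72 with iBET (SE 0.27) had an adjusted p of 0.112. Without DMSO replicate 1 the iBET value was 1.09 and passed (adjusted p = 0.0239). Hcst, which encodes DAP10, the adaptor of NKG2D that signals through phosphoinositide 3-kinase, was at 16.2 and 6.57 CPM in DMSO, 17.7 and 19.8 with MM-401, 28.3 and 41.5 with EPZ5676, 35.2 and 33.9 with MI-2-2, and 16.8 and 19.6 with iBET. All 4 libraries of EPZ5676 and MI-2-2 were above the DMSO libraries, whose own values differed over 2-fold. Hcst rose by 1.61 (SE 0.38, adjusted p = 0.013) and 1.6 (SE 0.38, adjusted p = 0.0123) on the log2 scale, and these calls were lost without EPZ5676 replicate 2 (1.31, adjusted p = 0.079) and without MI-2-2 replicate 2 (1.63, adjusted p = 0.0515). With iBET it passed only without DMSO replicate 1 (1.48, adjusted p = 0.00651).

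Cd47, the broadly expressed "do not eat me" ligand of SIRP alpha, moved little. Its level was 445.8 and 435.4 CPM in DMSO, 426.7 and 481.3 with MM-401, 504.2 and 605.8 with EPZ5676, 419.3 and 435.1 with MI-2-2, and 491.4 and 493.7 with iBET. The highest of the 10 libraries was 1.44 times the lowest. No comparison passed the threshold in edgeR, the value with EPZ5676 against DMSO being 0.33 (SE 0.13, adjusted p = 0.0803). DESeq2 called Cd47 higher with EPZ5676 against DMSO (0.37, adjusted p = 0.016) and against MM-401 (0.32, adjusted p = 0.0423).

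Sirpa, its inhibitory receptor on myeloid cells, was among the most abundant genes of the group. It stood at 242.8 and 229.4 CPM in DMSO, 358.2 and 337.4 with MM-401, 905.4 and 935.6 with EPZ5676, 751.5 and 1013 with MI-2-2, and 388 and 382.2 with iBET. The conditions formed 3 levels that did not overlap, with DMSO lowest, MM-401 and iBET between, and EPZ5676 and MI-2-2 highest. Sirpa rose 3.9-fold with EPZ5676 (log2 1.96, SE 0.16, adjusted p = 0.000418), 3.74-fold with MI-2-2 (log2 1.90, SE 0.16, adjusted p = 0.000438) and 1.63-fold with iBET (log2 0.71, SE 0.16, adjusted p = 0.0254). The iBET call was lost without iBET replicate 1 (0.7, adjusted p = 0.132) or replicate 2 (0.72, adjusted p = 0.128).

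The Sirpb1 genes encode activating relatives that pair with DAP12 and do not bind Cd47. Sirpb1a had 1 and 3 reads in the DMSO libraries, 0 and 1 with MM-401, 22 and 22 with EPZ5676, 20 and 47 with MI-2-2 and none with iBET. Sirpb1b had 0 and 3 reads in DMSO, 2 and 1 with MM-401, 33 and 30 with EPZ5676, 22 and 55 with MI-2-2 and none with iBET. Reads of both genes thus came almost wholly from EPZ5676 and MI-2-2. The depth-scaled ratio of Sirpb1b to DMSO was 23.4 with EPZ5676 (95% interval from an exact binomial test 7.63 to 116) and 23.7 with MI-2-2 (7.81 to 117), intervals that cover counting error only. Both genes rose with both inhibitors (largest adjusted p = 0.0136), and without EPZ5676 replicate 2 or MI-2-2 replicate 2 neither call held (adjusted p 0.0506 to 0.0651), nor did that of Sirpb1a without EPZ5676 replicate 1 (adjusted p = 0.055). The 2 genes share 40.4% and 58% of their 50-base stretches with other annotated genes, mostly Sirpb1c, so reads could have been split between copies.

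The paired immunoglobulin-like receptors bind MHC class I molecules, and Pirb, with its ITIMs, is the inhibitory member. Pirb was at 12.9 and 5.46 CPM in DMSO, 16.6 and 12.2 with MM-401, 98.6 and 125.4 with EPZ5676, 135.5 and 179 with MI-2-2, and 25.3 and 26.9 with iBET. All 3 of these inhibitors lay above both DMSO libraries. Pirb rose 12.1-fold with EPZ5676 (log2 3.6, SE 0.39, adjusted p = 0.000799), 17-fold with MI-2-2 (log2 4.09, SE 0.39, adjusted p = 0.00061) and 2.82-fold with iBET (log2 1.5, SE 0.36, adjusted p = 0.0347). With iBET the call was lost without iBET replicate 1 (1.54, adjusted p = 0.132) or replicate 2 (1.45, adjusted p = 0.153).

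Its activating counterparts use the Fc receptor gamma chain. Pira6 was at 0.195 and 0.24 CPM in DMSO, 0.296 and 0.42 with MM-401, 3.74 and 5.22 with EPZ5676, 3.04 and 10.2 with MI-2-2, and 0.0884 and 0.268 with iBET. It rose 20.3-fold with EPZ5676 (log2 4.34, SE 0.73, adjusted p = 0.00338) and 30-fold with MI-2-2 (log2 4.91, SE 0.73, adjusted p = 0.0021), with no overlap between these libraries and DMSO. Pira2 and Lilra6 rose too, by 2.79 and 2.16 with EPZ5676 and by 2.82 and 2.24 with MI-2-2 on the log2 scale, and neither passed with iBET (0.58 and -0.24). The calls of Pira2 were lost without EPZ5676 replicate 2 (2.40, adjusted p = 0.0524) or MI-2-2 replicate 2 (2.05, adjusted p = 0.0521). Lilra5 had no read in the 6 libraries of DMSO, MM-401 and iBET, 21 and 20 reads with EPZ5676 and 8 and 9 with MI-2-2. Against 3 reads over the DMSO group it was at least 15.2-fold higher with EPZ5676 and at least 5.23-fold higher with MI-2-2. The MI-2-2 call was lost without replicate 1 (adjusted p = 0.0536) or replicate 2 (adjusted p = 0.0595) of MI-2-2. Lilrb4, the inhibitory gp49B receptor, ranged from 29.5 CPM in DMSO replicate 2 to 682.4 CPM in MI-2-2 replicate 2 and rose by 3.24 with EPZ5676 (SE 0.43) and 3.52 with MI-2-2 (SE 0.44).

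Several of these rows cannot be told fully apart by sequence. In the GENCODE M21 annotation, 93% of the 50-base stretches of Pira2 occur in another gene (82.6% in Gm15922), 47.2% of those of Lilrb4, 34% of those of Pirb and 31.3% of those of Lilra6. Pira6 was not matched to this annotation. How reads that fit several genes were counted is not given in the sources used here, so the fold changes of single Pira genes are uncertain. For 25 of the 34 genes in the plot of shared sequence, including Tyrobp, Sirpa, Lair1, Trem1 and Siglec5, the share was below 5%.

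**Figure D3:**
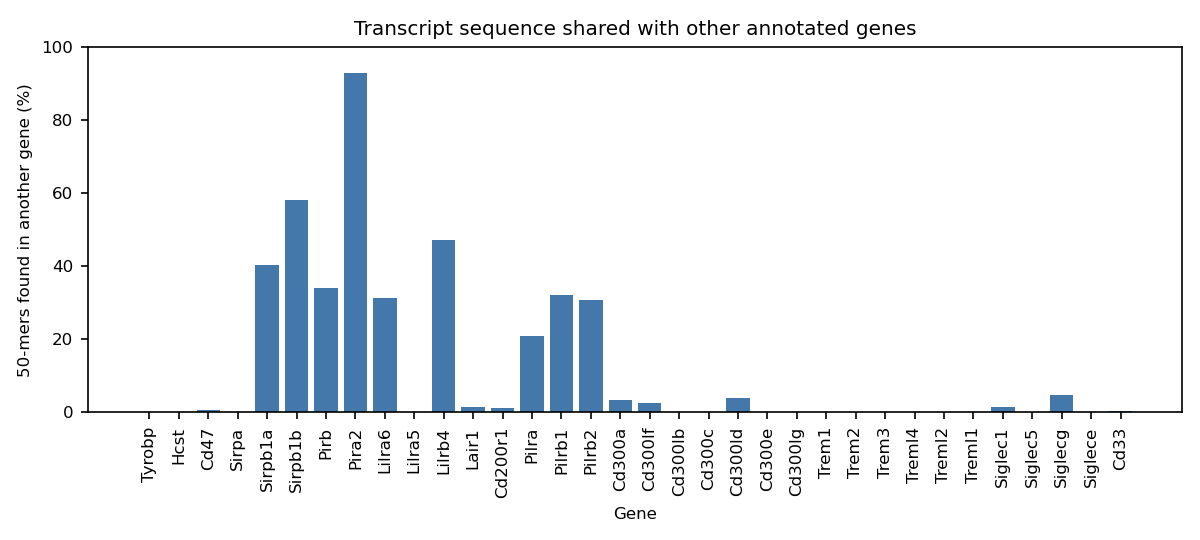
Percent of the distinct 50-base stretches of each gene's annotated transcripts that also occur in another gene (vertical axis, 0 to 100%) for the genes matched to the annotation (horizontal axis). Pira2 stands highest at 93%, followed by Sirpb1b at 58%, Lilrb4 at 47.2% and Sirpb1a at 40.4%, whereas the adaptors, most Trem genes and most Siglec genes are near 0.

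Lair1 and Cd200r1 are inhibitory receptors without an activating twin among the genes counted here. Lair1, a receptor for collagens, was at 84.9 and 78.8 CPM in DMSO, 71.8 and 68.4 with MM-401, 85.5 and 69.6 with EPZ5676, 63.2 and 47.8 with MI-2-2, and 11.1 and 17.5 with iBET. Both iBET libraries lay below the other 8. Lair1 fell 5.72-fold with iBET (log2 -2.52, SE 0.24, adjusted p = 0.00208) and did not pass with EPZ5676 (-0.08, SE 0.22, adjusted p = 0.803) or MI-2-2 (-0.56, SE 0.23, adjusted p = 0.0794). Both MI-2-2 libraries were nevertheless below both DMSO libraries, and with total-count scaling the MI-2-2 value passed (-0.71, adjusted p = 0.046). Cd200r1, whose ligand CD200 restrains myeloid cells, was at 14.3 and 7.24 CPM in DMSO, 10.4 and 10.2 with MM-401, 39.3 and 49.7 with EPZ5676, 42.9 and 56.4 with MI-2-2, and 5.97 and 6.12 with iBET. It rose 4.12-fold with EPZ5676 (log2 2.04, SE 0.31, adjusted p = 0.00238) and 4.6-fold with MI-2-2 (log2 2.20, SE 0.31, adjusted p = 0.00171). With iBET its value of -0.84 (SE 0.31, adjusted p = 0.107) passed only without DMSO replicate 2 (-1.24, adjusted p = 0.00851) and in DESeq2 (-0.85, adjusted p = 0.0496).

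All 3 Pilr genes rose with EPZ5676 and with MI-2-2 and fell with iBET, where 18.7% and 20.2% of all genes rose and 7.54% fell. Pilra, the ITIM-bearing member that binds sialylated O-glycoproteins, was at 42.4 and 30.9 CPM in DMSO, 64.6 and 71 with MM-401, 170.6 and 187.9 with EPZ5676, 196.9 and 211.9 with MI-2-2, and 12.6 and 11.8 with iBET. No condition overlapped another. Pilra rose 4.89-fold with EPZ5676 (log2 2.29, SE 0.16, adjusted p = 0.000319) and 5.58-fold with MI-2-2 (log2 2.48, SE 0.16, adjusted p = 0.000246), and fell 3.01-fold with iBET (log2 -1.59, SE 0.16, adjusted p = 0.0028). The activating Pilrb1, which couples to DAP12, was at 13 and 8.1 CPM in DMSO, 23.4 and 24.2 with MM-401, 51.5 and 60.7 with EPZ5676, 60.8 and 68.4 with MI-2-2, and 3.98 and 2.75 with iBET, and Pilrb2 had the same order of conditions. Their log2 fold changes were 2.41 and 2.62 with EPZ5676, 2.61 and 2.73 with MI-2-2, and -1.65 and -1.35 with iBET. Without iBET replicate 2 the iBET values of Pilrb1 (-1.41, adjusted p = 0.0806) and Pilrb2 (-1.0, adjusted p = 0.165) no longer passed, and that of Pilrb2 was also lost without iBET replicate 1 (-1.79, adjusted p = 0.0554) or DMSO replicate 1 (-0.94, adjusted p = 0.0532). The Pilrb genes share 26% of their 50-base stretches with each other, and 468 exon bases of Pilra overlap Zcwpw1 on the opposite strand. Whether counting used the strand is not stated.

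**Figure D4:**
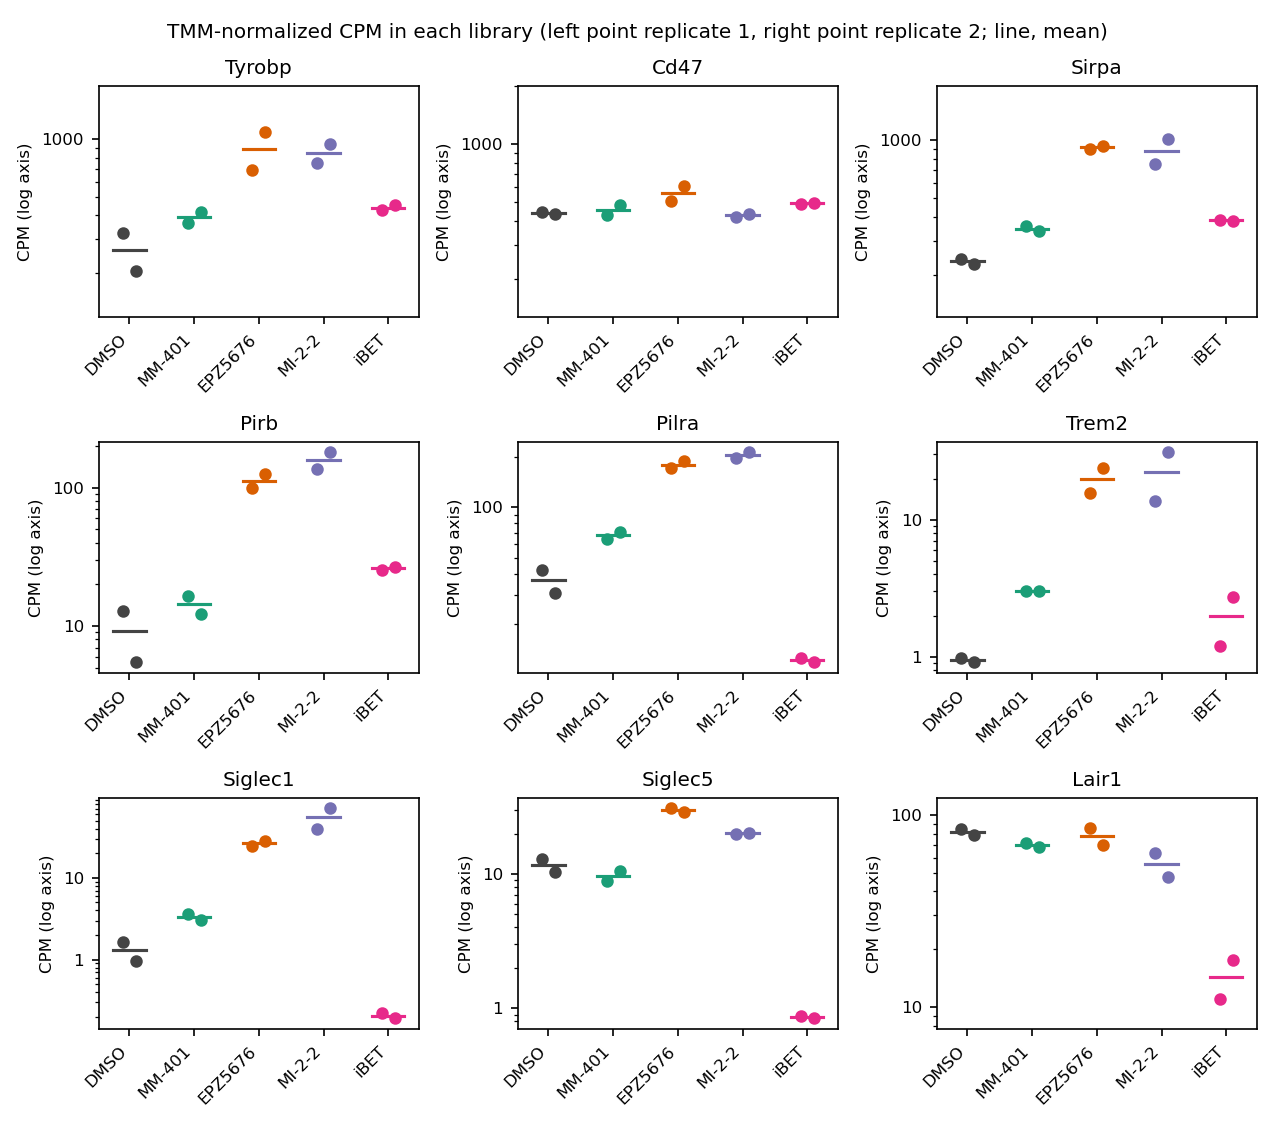
TMM-normalized CPM (vertical log axes) of Tyrobp, Cd47, Sirpa, Pirb, Pilra, Trem2, Siglec1, Siglec5 and Lair1 in the 2 libraries of each condition (points) with the group mean (line). Sirpa and Pirb rise in EPZ5676, MI-2-2 and iBET, Pilra, Siglec1 and Siglec5 are higher in EPZ5676 and MI-2-2 and lowest in iBET, Lair1 is lowest in iBET, and Cd47 stays between 419.3 and 605.8 CPM.

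The Cd300 family binds lipids and other signs of dying cells. Of its 7 genes tested, 5 rose with EPZ5676, 6 with MI-2-2 and none with iBET, and 1 fell with iBET. Of all genes 18.7% rose with EPZ5676 and 20.2% with MI-2-2, while 6.38% rose and 7.54% fell with iBET. The ITIM-bearing Cd300lf ranged from 22.6 CPM in DMSO to 396.5 with MI-2-2 and rose by 3.14 with EPZ5676 (SE 0.39) and 3.22 with MI-2-2 (SE 0.40). Cd300a, the other inhibitory member, was at 44.4 and 48.7 CPM in DMSO and between 89.9 and 200.4 CPM with EPZ5676 and MI-2-2, and rose by 1.43 and 1.76. Without EPZ5676 replicate 2 the value of Cd300a was 0.95 (adjusted p = 0.074). Among the activating members, Cd300ld rose by 1.88 and 2.28, and Cd300lb passed with MI-2-2 (1.83, adjusted p = 0.0433) and not with EPZ5676 (1.26, adjusted p = 0.134), its DMSO libraries being at 60.7 and 11 CPM. With iBET Cd300lb was at 20.3 and 16.6 CPM, between the DMSO libraries, and its value of -0.96 (adjusted p = 0.31) became 0.76 (adjusted p = 0.0264) without DMSO replicate 1 and -1.72 (adjusted p = 0.00194) without DMSO replicate 2. Its MI-2-2 call was lost without MI-2-2 replicate 1 (1.75, adjusted p = 0.127) or replicate 2 (1.92, adjusted p = 0.111), and with total-count scaling (1.66, adjusted p = 0.0633). Cd300e stayed at or under 1.9 CPM in every library and rose by 2.31 and 2.76, calls that were lost without either EPZ5676 library (adjusted p 0.144 and 0.128), without DMSO replicate 2 for EPZ5676 (1.60, adjusted p = 0.104) and without MI-2-2 replicate 2 (2.18, adjusted p = 0.138). The EPZ5676 call of Cd300e was also lost with total-count scaling (adjusted p = 0.0592) and with no filter (adjusted p = 0.0538). Cd300lg, known mainly from endothelium, passed in no comparison with all libraries in the fit. Its DMSO libraries were at 0.156 and 1.49 CPM, and its calls depended on which of them was used. Without DMSO replicate 1 it was lower with MI-2-2 (-1.48, adjusted p = 0.0376), and without DMSO replicate 2 it was higher with EPZ5676 (2.98, adjusted p = 0.0122) and with iBET (4.30, adjusted p = 0.00646).

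Cd300c was a low gene whose level separated iBET from the rest. It was at 1.32 and 0.815 CPM in DMSO, 1.9 and 2.98 with MM-401, 2.43 and 3.2 with EPZ5676, 2.99 and 3.11 with MI-2-2, and 0.0442 and 0.153 with iBET. It fell 10.1-fold with iBET (log2 -3.34, SE 0.58, adjusted p = 0.012), and rose by 1.38 with EPZ5676 (adjusted p = 0.0437) and 1.5 with MI-2-2 (adjusted p = 0.0302). All 3 calls were lost without either library of the inhibitor, with adjusted p 0.0853 and 0.189 for EPZ5676, 0.0927 and 0.112 for MI-2-2 and 0.0866 and 0.054 for iBET. Without DMSO replicate 2 the EPZ5676 and MI-2-2 values were 1.11 (adjusted p = 0.103) and 1.23 (adjusted p = 0.0735). The EPZ5676 call was also lost with total-count scaling (1.20, adjusted p = 0.0645) and with no filter (1.39, adjusted p = 0.0525).

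The Trem genes encode DAP12-coupled activating receptors. Trem2, the lipid-sensing receptor of macrophages and microglia, was at 0.974 and 0.911 CPM in DMSO, 3 and 3.02 with MM-401, 15.7 and 24 with EPZ5676, 13.6 and 31 with MI-2-2, and 1.19 and 2.75 with iBET. Every inhibitor library exceeded both DMSO libraries. Trem2 rose 20.9-fold with EPZ5676 (log2 4.39, SE 0.55, adjusted p = 0.00124) and 23.5-fold with MI-2-2 (log2 4.56, SE 0.55, adjusted p = 0.00102), and its values of 1.07 with iBET (adjusted p = 0.207) and 1.67 with MM-401 (adjusted p = 0.334) did not pass. Trem1 and Trem3, amplifiers of neutrophil and monocyte inflammation, went the opposite way in iBET. Trem1 ranged from 12.5 to 16.7 CPM in DMSO, 84.5 to 130.2 with EPZ5676 and MI-2-2 and 3.98 to 6.54 with iBET, and Trem3 from 40.9 to 90.5, 118.9 to 145.3 and 14.4 to 16.3 CPM. Trem1 rose by 2.57 (SE 0.24) and 3.07 (SE 0.24) and fell by 1.48 with iBET (SE 0.24, adjusted p = 0.00992), while Trem3 rose by 1.08 (SE 0.31) and 0.95 (SE 0.31) and fell by 2.09 (SE 0.32, adjusted p = 0.00829). The Trem3 rises were lost without either library of EPZ5676 (adjusted p 0.0721 and 0.107) or of MI-2-2 (adjusted p 0.143 and 0.0983) and with total-count scaling (adjusted p 0.0555 and 0.0819), and its fall without either iBET library (adjusted p 0.076 and 0.0698). The fall of Trem1 did not pass without iBET replicate 2 (log2 -1.15, adjusted p = 0.0615).

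The Trem-like genes were less uniform. Treml4 was at 1.44 and 0.336 CPM in DMSO, 1.27 and 1.39 with MM-401, 9.17 and 9.18 with EPZ5676, 11.1 and 11.1 with MI-2-2, and 0.221 and 0.0765 with iBET. It rose by 3.34 (SE 0.58, adjusted p = 0.00408) and 3.61 (SE 0.59, adjusted p = 0.00284). Both calls were lost in fits of only the 4 libraries compared (adjusted p = 0.0533 and 0.0536). Its iBET value of -2.59 (SE 0.72, adjusted p = 0.0505) passed with the replicate number as a block (-2.55, adjusted p = 0.0385) and with DESeq2 size factors (adjusted p = 0.0495). It also passed with no filter (adjusted p = 0.0443) and in the DESeq2 test (adjusted p = 0.00603). Without DMSO replicate 2 the iBET value was -3.27. Treml2 was at 127.2 and 213.2 CPM in DMSO, 253.1 to 362.1 CPM with EPZ5676 and MI-2-2, and 39.1 and 73.8 CPM with iBET. It fell with iBET (-1.59, SE 0.35, adjusted p = 0.0256), a call lost without iBET replicate 1 (-2.12, adjusted p = 0.0509) or replicate 2 (-1.20, adjusted p = 0.146). Its values were 0.76 with EPZ5676 (adjusted p = 0.118) and 0.86 with MI-2-2 (adjusted p = 0.0794). Both passed with the replicate number as a block (0.79, adjusted p = 0.00929, and 0.89, adjusted p = 0.00557). Treml1, known from platelet granules, had 33 reads in all, 25 of them with MI-2-2, and was not tested with all libraries in the fit. It did enter the fits that left out a DMSO library, which tested 35 genes, and the MI-2-2 counts of those fits include it. Its depth-scaled ratio of MI-2-2 to DMSO was 23.1, on 25 reads against 1 (95% interval 3.78 to 947).

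Siglecs bind sialic acids on the same or neighbouring cells, and most carry ITIMs. Siglec1, the macrophage sialoadhesin, which has no ITIM, was at 1.64 and 0.959 CPM in DMSO, 3.59 and 3.07 with MM-401, 24.3 and 28.3 with EPZ5676, 39.1 and 70.4 with MI-2-2, and 0.221 and 0.191 with iBET. No condition overlapped another. It rose 20-fold with EPZ5676 (log2 4.32, SE 0.37, adjusted p = 0.000457) and 41.7-fold with MI-2-2 (log2 5.38, SE 0.38, adjusted p = 0.000275), and fell 6.24-fold with iBET (log2 -2.64, SE 0.48, adjusted p = 0.0131). The iBET call was lost without iBET replicate 1 (-2.74, adjusted p = 0.0869) or replicate 2 (-2.54, adjusted p = 0.104). Siglece, an inhibitory receptor of neutrophils and macrophages, was at 3.19 and 4.08 CPM in DMSO, 6.42 and 10.3 with MM-401, 31.4 and 38.9 with EPZ5676, 33 and 35.6 with MI-2-2, and 0.928 and 0.727 with iBET. It rose 9.69-fold (log2 3.28, SE 0.28, adjusted p = 0.000457) and 9.44-fold (log2 3.24, SE 0.28, adjusted p = 0.000472) and fell 4.38-fold with iBET (log2 -2.13, SE 0.31, adjusted p = 0.00708), a fall that did not pass without iBET replicate 2 (-1.96, adjusted p = 0.0681).

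The row named Siglec5 matched the gene now called Siglecf, the inhibitory lectin of mouse eosinophils and alveolar macrophages. It was at 12.9 and 10.3 CPM in DMSO, 8.88 and 10.5 with MM-401, 30.7 and 28.7 with EPZ5676, 20 and 20.2 with MI-2-2, and 0.884 and 0.842 with iBET. It fell 13.4-fold with iBET (log2 -3.74, SE 0.21, adjusted p = 0.000334), and rose by 1.36 with EPZ5676 (SE 0.18, adjusted p = 0.00149) and by 0.79 with MI-2-2 (SE 0.18, adjusted p = 0.00998). Without MI-2-2 replicate 2 the MI-2-2 value was 0.79 with an adjusted p of 0.0553. The summed level of 6 eosinophil genes (Prg2, Epx, Ear1, Ear2, Il5ra and Ccr3) was at most 1.39 CPM in any library. Siglecg, the CD24 receptor best known from B cells, was at 1.21 and 1.58 CPM in DMSO, 1.52 and 1.43 with MM-401, 4.51 and 3.86 with EPZ5676, 1.52 and 2.15 with MI-2-2, and 0.442 and 0.0765 with iBET. It fell with iBET (-2.44, SE 0.63, adjusted p = 0.0415), and the call was lost without iBET replicate 2 (-1.64, adjusted p = 0.146) or DMSO replicate 2 (-2.24, adjusted p = 0.0538). Its value of 1.59 with EPZ5676 (SE 0.54, adjusted p = 0.0513) passed with the replicate block (1.58, adjusted p = 0.0371), with DESeq2 size factors (adjusted p = 0.0495), with a minimum of 1 CPM in 2 libraries (adjusted p = 0.0481) and in the DESeq2 test (adjusted p = 0.0139).

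Cd33, a Siglec of early myeloid cells whose mouse form differs from the human receptor in its cytoplasmic tail, was the most abundant Siglec in every library. It was at 217.8 and 219.2 CPM in DMSO, 277 and 409.1 with MM-401, 272.7 and 548 with EPZ5676, 520.7 and 926.2 with MI-2-2, and 117.6 and 108.2 with iBET. The 2 libraries of EPZ5676 and of MI-2-2 differed more from each other than those of DMSO or iBET. Cd33 rose with MI-2-2 (1.73, SE 0.38, adjusted p = 0.00893), a call lost without MI-2-2 replicate 2 (1.26, adjusted p = 0.06). Its values were 0.91 with EPZ5676 (SE 0.37, adjusted p = 0.0873) and -0.95 with iBET (SE 0.37, adjusted p = 0.123). Both passed with the replicate number as a block (0.83, adjusted p = 0.0423, and -0.94, adjusted p = 0.047). They also passed in the DESeq2 test (adjusted p = 0.0283 and 0.042). With the block, 2 Cd300 genes also passed with iBET, Cd300a (0.66, adjusted p = 0.0456) and Cd300ld (-1.25, adjusted p = 0.0412). In the DESeq2 test Cd300ld passed (adjusted p = 0.00673) and Cd300a did not.

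By role, 9 of the 12 inhibitory receptors tested rose with EPZ5676 and 10 with MI-2-2, and all 12 were past the filter's minimum in both DMSO libraries. Cd33 was counted among these 12, although its mouse form differs from the human receptor in its cytoplasmic tail. It passed with MI-2-2 and not with EPZ5676, and is the gene by which the 2 counts differ. Of 15 activating receptors tested, 9 were past it in DMSO, and 8 of these rose with EPZ5676 and 9 with MI-2-2. The other 6 were tested only through EPZ5676 or MI-2-2 libraries, so that their rise could not be told apart from their selection. Of all 12971 genes 18.7% rose with EPZ5676 and 20.2% with MI-2-2. With iBET 2 inhibitory receptors rose and 5 fell, and 5 activating receptors fell, where 6.38% of all genes rose and 7.54% fell. Among genes past the minimum in DMSO, inhibitory and activating members rose side by side in 3 families under EPZ5676 and MI-2-2. These were the PILR and Cd300 families and the PIR and LILR family, the last with Lilra6 as its only activating member. In the SIRP family the activating Sirpb1a and Sirpb1b were tested only through EPZ5676 and MI-2-2 libraries, so the same cannot be said there. The 27 genes that rose with EPZ5676 all rose with MI-2-2 as well. With iBET, 9 of them (Cd300c, Trem1, Trem3, Siglec1, Pilra, Pilrb1, Pilrb2, Siglec5 and Siglece) fell, 2 (Sirpa and Pirb) rose and 16 did not pass. A further 3 (Treml2, Lair1 and Siglecg) fell with iBET without passing in the other 2 comparisons. The share of all genes with the same joint calls was not counted, so these counts cannot be set against it. They also depend on the threshold. With iBET Cd300ld, which did not pass, had a value of -1.32 (adjusted p = 0.0621), beside -1.48 for Trem1, which did. These comparisons share their DMSO libraries. No direct comparison of iBET with EPZ5676 or MI-2-2 was made, so these calls side by side are no test of a difference between those inhibitors.

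For MM-401 against DMSO none of the 34 genes passed in edgeR. At an unadjusted p under 0.05 there were 9. The share of all genes at that unadjusted p was not counted, so the 9 cannot be set against it. In DESeq2's test 6 passed (Sirpa, Siglec1, Pilra, Pilrb1, Pilrb2 and Siglece), where 2.28% of all genes passed, and each of the 6 was higher. The edgeR values of these were 0.56 for Sirpa, 1.34 for Siglec1, 0.89 for Pilra, 1.17 for Pilrb1, 1.08 for Pilrb2 and 1.20 for Siglece. Both MM-401 libraries were above both DMSO libraries for 17 of the 34 genes, where 19.5% of all genes did this, and below for 2 (17.8%). Without DMSO replicate 1, 11 genes were higher, among them Siglec1, Pilra, Pirb and Hcst, where 10.2% of all genes passed. Without DMSO replicate 2 there was none.

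EPZ5676 and MI-2-2 were also compared directly, without DMSO. None of the 34 genes passed in edgeR or in DESeq2, where 0.0154% of all genes passed in edgeR, 0.00771% in each direction, and 1.25% in DESeq2. With the share of all genes at that level not counted, 4 had an unadjusted p below 0.05 in edgeR. These were Siglec1 (log2 -1.06, SE 0.31, higher with MI-2-2), Siglec5 (0.56, SE 0.18), Cd47 (0.38, SE 0.13) and Lilra5 (1.52, SE 0.52), the last 3 higher with EPZ5676. The libraries overlapped for 20 genes, and were separate for 6 that were higher with EPZ5676 (18.6% of all genes) and 8 that were higher with MI-2-2 (20.8%). For Sirpa the difference was 0.06 (SE 0.16), for Tyrobp 0.07 (SE 0.27), for Pilra -0.19 (SE 0.15) and for Pirb -0.49 (SE 0.34). With 2 libraries each, these values do not show that the levels were equal.

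Against MM-401, which also leaves out the DMSO libraries, 22 genes were higher with EPZ5676 and none lower, where 33.3% of all genes passed, 16.7% higher and 16.6% lower. With MI-2-2, 24 were higher and none lower, where 35.7% passed, 18% higher and 17.6% lower. With iBET none was higher and 15 were lower, where 11.4% passed, 5.48% higher and 5.96% lower. Among the 28 genes past the filter's minimum in both MM-401 libraries, 17 were higher with EPZ5676 and 19 with MI-2-2, where 15.2% and 16.8% of the 11840 genes past it were, and 15 were lower with iBET (6.3%). Both EPZ5676 libraries were above both MM-401 libraries for 31 genes (37.3% of all genes, while 38.1% were below). Both MI-2-2 libraries were above for 30 (38.9%), with 1 below (39.2%). These counts, and the medians for EPZ5676 and MI-2-2, include genes that entered the test only through libraries of these inhibitors. Both iBET libraries were below both MM-401 libraries for 23 genes (36.8%) and above for 6 (33.8%). The medians were 1.52, 1.70 and -1.48, and -1.13 for iBET with genes without reads at their bound. Pirb was higher by 2.96 (SE 0.37) with EPZ5676 and by 3.45 (SE 0.38) with MI-2-2, Siglec1 by 2.98 and 4.04, and Pira6 by 3.63 and 4.19. Sirpa was higher by 1.40 and 1.34 (both SE 0.16) and Tyrobp by 1.19 and 1.11 (both SE 0.28). With iBET, Pilra was lower than with MM-401 by 5.56-fold (log2 -2.48, SE 0.17, adjusted p = 0.000518), Siglec5 by 11.2-fold (log2 -3.48, SE 0.21, adjusted p = 0.000324), Siglece by 10.1-fold (log2 -3.33), Siglec1 by 15.8-fold (log2 -3.98) and Lair1 by 4.9-fold (log2 -2.29, adjusted p = 0.00265). Sirpa and Pirb, which rose with iBET against DMSO, did not pass here. Without MM-401 replicate 1 the counts were 12 for EPZ5676 and 15 for MI-2-2, where 11.9% and 13.9% of all genes passed. Without MM-401 replicate 2 that for EPZ5676 was 14 (11.6% of all genes), and without iBET replicate 2 that for iBET was 9 (1.67%). Tyrobp passed in neither comparison without either MM-401 library (adjusted p 0.0715 to 0.108), nor without EPZ5676 replicate 2 (0.83, adjusted p = 0.0844) or MI-2-2 replicate 2 (0.95, adjusted p = 0.0945). Pira6 did not pass for EPZ5676 without MM-401 replicate 1 (3.40, adjusted p = 0.0638) or replicate 2 (3.90, adjusted p = 0.0513). With the replicate number as a block, Cd300a (0.66, adjusted p = 0.0277), Treml2 (0.97, adjusted p = 0.00489) and Siglecg (1.5, adjusted p = 0.0461) also passed for EPZ5676. For MI-2-2, Cd300lb (1.65, adjusted p = 0.0336) and Cd33 (1.06, adjusted p = 0.0182) then passed.

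Of the kinases and adaptors that act below the activating receptors, 22 were tested, and 12 rose with EPZ5676 and 14 with MI-2-2, where 18.7% and 20.2% of all genes rose. With iBET 6 rose (6.38% of all genes), and none fell in any of the 3 comparisons. The others did not pass, and Cblb (-0.27 and -0.05) and Btk (-0.13 and -0.04) had values below 0 with EPZ5676 and MI-2-2. Their medians were 0.62, 0.72 and 0.36 on the log2 scale, beside -0.06, -0.05 and -0.04 for all genes. Syk, the kinase recruited by DAP12, was at 200.7 and 222.4 CPM in DMSO and 434.3 to 531.6 CPM with EPZ5676 and MI-2-2, and rose by 1.20 and 1.19 (both SE 0.16). The Src-family kinase Fgr, typical of maturing granulocytes and monocytes, rose by 4.90 with EPZ5676 and by 4.62 with MI-2-2. Its level was 7.87 and 0.959 CPM in DMSO, 102.2 to 134.5 CPM with EPZ5676 and MI-2-2 and 0.459 and 0.663 CPM with iBET. Fcer1g rose in all 3 comparisons, by 1.45, 1.51 and 1.34 with iBET (adjusted p = 0.0196). Of the 8 phosphatases and docking proteins of the inhibitory arm, 5 rose with EPZ5676 and 5 with MI-2-2, against the same shares of all genes. Ptpn6, which encodes SHP-1, rose by 0.72 and 0.74 (both SE 0.15) and Dok3 by 1.35 and 1.49 (both SE 0.21). Dok2, a docking protein that dampens cytokine signals, rose by 0.85 and 1.26 and fell by 1.25 with iBET (SE 0.18, adjusted p = 0.00739).

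Other receptors that use DAP12 and the ligands gave smaller counts. Of the 3 other Tyrobp users tested, Csf1r and Clec5a rose with both EPZ5676 (1.84 and 1.69) and MI-2-2 (1.88 and 2.14), and the third, Cd300lb, is given above. Of 6 ligands and ligand modifiers tested, none passed with EPZ5676 or MI-2-2 and St3gal4, a sialyltransferase, rose with iBET (0.52, SE 0.11, adjusted p = 0.0242). Cd200, the ligand of Cd200r1, was at most 0.471 CPM in any library.

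Marker genes of several cell types also changed. For reading their counts, 18.7%, 20.2% and 6.38% of all genes rose and 19.4%, 21.2% and 7.54% fell with EPZ5676, MI-2-2 and iBET. All 7 neutrophil genes counted rose with EPZ5676 and with MI-2-2, with a summed level of 732.3 to 3554 CPM in DMSO, 4507 to 5889 with MM-401, 42540 to 64970 with EPZ5676 and MI-2-2 and 491.2 to 1135 with iBET, where 3 of the 7 fell. Of 8 macrophage genes tested, 7 rose with both, with sums of 72 to 79.1 CPM in DMSO and 334.2 to 693.8 CPM with EPZ5676 and MI-2-2. With iBET 1 macrophage gene rose, and the sum was 70.2 to 107.2 CPM. Of 8 genes of leukemic progenitors, 5 (Prtn3, Elane, Meis1, Mpo and Ctsg) fell with both, while Hoxa9 fell only in the EPZ5676 comparison and Cd34 only in the MI-2-2 comparison. Their sums were 9693 to 13220 CPM in DMSO, 2164 to 3343 CPM with EPZ5676 and MI-2-2 and 5948 to 6781 CPM with iBET, where 2 fell (Elane and Mpo). The dendritic cell genes summed to 110.6 and 144.2 CPM in DMSO, 82.3 to 110.4 CPM with EPZ5676 and MI-2-2 and 208.2 and 336 CPM with iBET. Of the 4 tested, 1 fell with EPZ5676 and with MI-2-2, and 1 rose with iBET. The latter was Irf8, a transcription factor of dendritic cells and monocytes, at 21.1 and 61.3 CPM in DMSO and 131.8 and 241.5 CPM with iBET (log2 2.18, SE 0.48, adjusted p = 0.0247). In bulk RNA, fewer cells of a type and less RNA per cell cannot be told apart. Markers of B cells summed to at most 8.24 CPM in any library, those of T and NK cells to 65.7 CPM in DMSO replicate 2 (all of it Nkg7) and at most 5.04 CPM elsewhere, and those of mast cells and basophils to 133.1 CPM in DMSO replicate 2 and 23.4 to 54.5 CPM elsewhere. The part of these markers in the receptor results was not tested.

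Promoter sequences were compared because many of these genes moved together. RefSeq (GRCm38.p6) gave promoters, 300 bases from 250 before to 50 after the start, for 28 of the 42 genes, 26 of which had at least 10 reads and are counted here. The letters GAGGAA are the core of many sites bound by ETS factors such as PU.1, a master regulator of myeloid cells. They occurred on either strand in 16 of the 26 genes, and in 28.3% of all 32851 promoters. Here and below a gene was counted if any of its promoters matched. The share of all is per promoter, so the units differ. The longer GAGGAAGT occurred in 5 (Pirb, Pira2, Lilra6, Cd300ld and Cd300lf) and in 3.2% of all promoters. GGAAGT, which overlaps it, occurred in 17 (23.8% of all), TTGCNNAA, the letters of C/EBP sites, in 7 (10.8%), TGTGGT, those of RUNX sites, in 8 (16.8%), and TGANTCA, those of AP-1 sites, in 1, Trem2 (7.81%). These motifs were chosen with the sequences known and the matches are a description. Promoters to show were taken from genes with different behaviour. Pirb was higher with EPZ5676, MI-2-2 and iBET, and Lilra6 and Cd300lf with EPZ5676 and MI-2-2. Siglece and Pilrb1 were higher with both and lower with iBET, and Lair1 was lower with iBET. The promoter of Pilrb1, the only one of these without GAGGAA, is not printed. The other 5 are printed below. They lie at chr7:3720333-3720632 (Pirb), chr7:3915452-3915751 (Lilra6), chr11:115133943-115134242 (Cd300lf), chr7:43660112-43660411 (Siglece) and chr7:4063155-4063454 (Lair1), all 5 on the minus strand. They are written 5′ to 3′ in the direction of the gene, and capitals mark GAGGAA or its reverse complement TTCCTC.
Pirb: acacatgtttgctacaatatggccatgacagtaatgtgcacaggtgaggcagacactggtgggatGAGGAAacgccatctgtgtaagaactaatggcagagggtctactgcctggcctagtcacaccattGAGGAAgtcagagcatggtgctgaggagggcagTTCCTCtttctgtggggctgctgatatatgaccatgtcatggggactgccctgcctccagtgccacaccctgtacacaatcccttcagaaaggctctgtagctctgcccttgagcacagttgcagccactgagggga
Lilra6: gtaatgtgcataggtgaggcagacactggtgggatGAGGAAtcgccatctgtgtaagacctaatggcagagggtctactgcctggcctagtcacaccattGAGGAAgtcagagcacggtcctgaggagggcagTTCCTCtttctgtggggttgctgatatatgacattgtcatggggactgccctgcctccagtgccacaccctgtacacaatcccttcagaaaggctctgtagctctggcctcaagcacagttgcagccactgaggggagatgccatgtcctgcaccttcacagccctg
Cd300lf: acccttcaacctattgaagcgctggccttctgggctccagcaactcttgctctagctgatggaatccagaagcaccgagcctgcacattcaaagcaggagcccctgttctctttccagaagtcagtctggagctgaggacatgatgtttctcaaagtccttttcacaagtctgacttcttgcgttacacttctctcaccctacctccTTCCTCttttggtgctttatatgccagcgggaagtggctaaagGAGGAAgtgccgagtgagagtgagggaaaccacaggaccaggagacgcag
Siglece: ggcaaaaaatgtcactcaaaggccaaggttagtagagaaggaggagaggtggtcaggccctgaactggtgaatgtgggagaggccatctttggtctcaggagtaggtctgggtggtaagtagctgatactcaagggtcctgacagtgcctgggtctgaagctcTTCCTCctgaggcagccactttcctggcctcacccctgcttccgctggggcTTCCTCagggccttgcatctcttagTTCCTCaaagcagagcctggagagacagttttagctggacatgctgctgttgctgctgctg
Lair1: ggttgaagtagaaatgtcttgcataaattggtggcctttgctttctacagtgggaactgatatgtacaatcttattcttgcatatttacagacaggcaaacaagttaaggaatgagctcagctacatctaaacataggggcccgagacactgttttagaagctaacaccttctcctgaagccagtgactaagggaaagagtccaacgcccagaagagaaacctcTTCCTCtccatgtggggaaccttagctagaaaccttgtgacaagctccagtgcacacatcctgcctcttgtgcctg
GAGGAA matches numbered 3 in Pirb, 3 in Lilra6, 2 in Cd300lf, 3 in Siglece and 1 in Lair1. All 5 promoters shown thus hold the letters, which is not so for every gene that moved with them. The promoter of Pilrb1, which is not shown, held none, although Pilrb1 was called in the same directions as Siglece. The Pirb and Lilra6 promoters matched at 259 of 300 bases when aligned end to end, and those of Lilra6 and Pira2 at 287, so their motif matches are not independent of each other. Among the Pilr genes, the promoters of Pilrb1 and Pilrb2 matched at 292 of 300 bases and that of Pilra matched Pilrb1 at 242, whereas Pirb and Lair1 matched at 180.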

How the data were processed

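RNA-seq of 10 MAF9 libraries, 2 for each of 5 conditions, was analysed from the read counts per gene that the authors deposited as 1 table, whole numbers without normalization. The submitters' processing notes name TopHat2, Subread, DESeq and the build mm9, without versions or roles. How strand and multi-mapped reads were treated is not stated. Groups came from the sample titles. Counts were tested by edgeR's quasi-likelihood method (edgeR 4.0.16, R 4.3.3), after filterByExpr and TMM scaling, with all 10 libraries in 1 fit and 1 coefficient per condition, Benjamini-Hochberg adjusted over all 12971 genes per comparison, threshold 0.05, in 8 comparisons. SE is the log2 fold change divided by the square root of F. Where a group had 3 or fewer reads, ratios carry exact 95% intervals, and bounds use 3 reads over the group, for counting error only. Libraries of 20394762 to 29473127 reads allow levels down to 0.0365 to 0.0485 CPM per read.

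Same-numbered replicates deviated together in all 10 pairs of conditions (correlations 0.278 to 0.666 across 12971 genes). By this check of the data, not by a label, a replicate block was fitted as an alternative. Correlations with DMSO were 0.278 to 0.323. DMSO replicate 2 was also the only library with Y-linked transcripts and little Xist, unlike the other replicate 2 libraries. In comparisons with DMSO the block therefore cannot be read as a pairing by culture. Other alternatives were DESeq2 1.42.0 (test, or size factors in edgeR), total-count scaling, no filter or at least 1 CPM in 2 libraries, fits of only the 4 libraries compared, and each library left out. The fit was tested on simulated counts. Values in every library are given for Tyrobp, Hcst, Cd47, Sirpa, Cd33, Lair1, Cd200r1, Pirb, Pilra and Trem2, and per comparison for the 6 called genes with the largest change whose higher group reached 1 CPM. The members, the roles (textbook knowledge) and the lists were chosen with earlier results of these data known. Lengths and shared 50-base stretches came from GENCODE M21 on GRCm38, which is not the build of the counts, with 37 of 42 genes matched (34 by symbol, 3 through a synonym). Promoters came from RefSeq.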

Additional observations from a re-analysis of the deposited data

How the results depend on the processing

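Counts of called receptor genes stayed within 1.5 times the value given in the report under total-count scaling, DESeq2 size factors and both other filters. The same held for the replicate block, which gave 30 for EPZ5676, 30 for MI-2-2, 18 for iBET and 0 for MM-401 against DMSO. It gave 0 for EPZ5676 against MI-2-2, and 25, 26 and 15 for EPZ5676, MI-2-2 and iBET against MM-401. The share of all genes called moved too. For EPZ5676, MI-2-2 and iBET against DMSO it was 47.6%, 50.6% and 23.8% with the block, beside 38.1%, 41.4% and 13.9% without it. Against MM-401 it was 43.4%, 46% and 19%, beside 33.3%, 35.7% and 11.4%. The calls that the block changed are given in the report. Fits of only the 4 libraries compared gave 17, 17 and 0 against DMSO for EPZ5676, MI-2-2 and iBET. The DESeq2 test gave 6 for MM-401 against DMSO. The cause was not tested in either case. With 1 library left out, which leaves its group with 1 library assumed to vary like the others, the counts ranged from 19 to 29 for EPZ5676, 18 to 32 for MI-2-2, 3 to 18 for iBET and 0 to 11 for MM-401 against DMSO, from 0 to 0 for EPZ5676 against MI-2-2, and from 12 to 20, 15 to 24 and 9 to 10 for EPZ5676, MI-2-2 and iBET against MM-401. The lowest counts were those without MI-2-2 replicate 2 (18), iBET replicate 2 (3; 7 without iBET replicate 1) and MM-401 replicate 1 (12 and 15). The share of all genes called also moved with 1 library left out, so these counts alone do not measure stability. Total-count scaling moved the median of all genes to -0.23 for EPZ5676 and -0.20 for MI-2-2 against DMSO.

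Of 269 pairs of a gene and a comparison with reads, 45 changed sign under at least 1 alternative. None of these was called in the report, and in 1 (Cd300lb, iBET against DMSO) the value of opposite sign was itself called. For the genes and comparisons described in the report the values were as follows. Hcst, EPZ5676 against MI-2-2, was 0.01 and became -0.014 with total-count scaling. With 1 library left out, the ranges that reached or crossed 0 were, between EPZ5676 and MI-2-2, -0.341 to 0.05 for Cd200r1, -0.642 to 0.541 for Trem2, -0.138 to 0.29 for Sirpa, -0.287 to 0.361 for Tyrobp and -0.287 to 0.263 for Hcst. Against DMSO they were -0.231 to 0.065 for Lair1 and -0.255 to 2.98 for Cd300lg with EPZ5676, -1.48 to 1.76 for Cd300lg with MI-2-2, -1.72 to 0.756 for Cd300lb, -0.023 to 1.11 for Lilrb4, -2.09 to 1.01 for Cd300e, -0.682 to 0.359 for Cd300lf, -4.79 to 0 for Sirpb1b and -1.24 to 0.309 for Pira6 with iBET, and -0.486 to 0.516 for Cd200r1 and -0.044 to 0.129 for Cd47 with MM-401. Against MM-401 they were -0.008 to 0.287 for Lair1 and -0.33 to 0.677 for Cd33 with EPZ5676, -0.17 to 0.002 for Cd47 with MI-2-2 and -0.155 to 0.069 for Hcst with iBET. Of the other single-gene values under all alternatives, 1910 kept their side of the threshold, 166 lost a call and 53 gained 1.

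Genes with few reads, such as Sirpb1a, Sirpb1b, Lilra5, Pira2 and Cd300e, rest on depth in the EPZ5676 and MI-2-2 libraries, and a decrease of these below DMSO could not have been detected.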
